A study of Mus musculus with 6 samples.

Results

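Shared distal regions are the stretches of open chromatin that lay far from genes' start sites and were found in every library of a mouse adipocyte ATAC-seq series. They were chosen from the peak calls themselves. Peaks of 6 libraries were merged where they overlapped or touched, a merged region had to hold a peak of all 6, and its strongest summit, the one with the highest -log10 q of any list, had to be more than 10 kb away from any protein-coding start site. Of 194496 merged regions, 35141 met the rule. They made up 18.1% of all regions, 25% of the 140659 distal regions and 59.9% of the 58714 regions open in all 6 libraries. The other 105518 distal regions had a peak in 1 to 5 libraries and are called other distal regions here. The 23573 regions open in all 6 whose strongest summit lay within 10 kb of a start site are called shared proximal regions.

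ATAC-seq uses a transposase that inserts sequencing adapters where DNA is accessible, so a peak marks open chromatin. The cells were the stromal vascular fraction, the adherent precursor-rich cells that collagenase frees from fat, taken from wild type male C57BL/6J mice aged 3 to 4 weeks and differentiated in culture. Beige adipocytes (2 libraries) and white adipocytes (2 libraries) came from inguinal subcutaneous fat, and brown adipocytes (2 libraries) from brown fat. Beige and brown cultures received insulin at 5 µg/ml, dexamethasone at 5 µM, IBMX at 0.5 mM, T3 at 1 nM and rosiglitazone, a PPARγ agonist, at 1 µM, and later insulin, T3 and rosiglitazone. White cultures received insulin at 5 µg/ml, dexamethasone at 1 µM and IBMX at 0.5 mM, and later insulin alone. These doses are those of the sample labels, and the study's methods give lower insulin doses, with less in the beige than in the white medium. Source and medium of the brown cultures rest on the labels alone. All cultures were collected after 7 days, and 50000 nuclei entered each reaction. Depot, medium and cell type therefore change together between some of the groups and cannot be told apart. The study's list of sequencing files names the beige and white libraries and none of brown. Whether the brown libraries were prepared together with the others is therefore not known. The study calls the cells analysed mature adipocytes but describes no sort of them in its culture methods, and the share of undifferentiated cells in the libraries was not measured. The study describes its ATAC-seq replicates as biological, 2 in each group, without saying whether they were separate animals or cultures.

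Most open sites far from genes are enhancers, which bind tissue-restricted and signal-dependent transcription factors and act on promoters over a distance, or insulators bound by CTCF, which anchors chromatin loops. AP-1, the dimer of Fos and Jun proteins, opens chromatin in many mesenchymal cells. C/EBP proteins and PPARγ drive adipocyte differentiation, and EBF and NFI proteins act with them in fat. The lists record accessibility and no histone mark or bound factor, so whether a region acts as an enhancer was not measured, and the regions are described by position and sequence only.

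The libraries held 109143 to 127490 peaks, and the shared distal regions took up 27.6% to 32.2% of each list. All 10 adipocyte marker genes had a summit within 1 kb of a start site in all 6 libraries. The same held for 2 of 10 macrophage markers, 5 of 10 endothelial markers, 5 of 10 neuronal markers and 0 of 10 skeletal muscle markers. Part of the lists of genes expressed in other cell types was thus open as well, and its part in the results was not tested. The lists hold no reads, so the number of reads behind each peak is not known here. The study states library totals for beige and white only, with fewer mapped reads and a lower mapped share in both beige libraries than in both white ones, so depth and condition cannot be told apart there. Intervals on shares below cover counting error only.

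Windows reaching 100 bp to each side of the strongest summit show what the sequence of these regions looks like. They are printed 5′ to 3′ on the plus strand of mm10 (GRCm38), with every match to the named motif in capitals and other motifs left in lower case. The first, an intergenic region 326 kb upstream of Arrdc3, which encodes an arrestin-like protein, was the highest-ranked region with an AP-1 site among those with at most 10% of their 31-mers elsewhere in the genome, a limit that holds for every window printed and was added after the data were seen. Esrrg, an oestrogen-related nuclear receptor of oxidative tissues, had the highest-ranked region near a thermogenic gene, and its window holds 3 AP-1 sites. Fabp5, a fatty acid binding protein, had the highest-ranked one near a lipid gene. Snx32, Irf2, Cited2 and Cast were nearest to the highest-ranked regions with a CTCF, KLF/SP, C/EBP and TEAD match.
Arrdc3, AP-1, chr13:80557266-80557466: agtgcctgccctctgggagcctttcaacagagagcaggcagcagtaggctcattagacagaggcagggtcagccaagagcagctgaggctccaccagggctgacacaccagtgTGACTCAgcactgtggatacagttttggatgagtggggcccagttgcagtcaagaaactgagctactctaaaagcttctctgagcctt
Esrrg, AP-1, chr1:187910843-187911043: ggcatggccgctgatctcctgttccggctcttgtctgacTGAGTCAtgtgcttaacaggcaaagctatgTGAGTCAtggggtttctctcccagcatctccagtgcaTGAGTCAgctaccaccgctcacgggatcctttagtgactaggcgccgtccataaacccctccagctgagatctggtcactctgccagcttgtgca
Snx32, CTCF, chr19:5529414-5529614: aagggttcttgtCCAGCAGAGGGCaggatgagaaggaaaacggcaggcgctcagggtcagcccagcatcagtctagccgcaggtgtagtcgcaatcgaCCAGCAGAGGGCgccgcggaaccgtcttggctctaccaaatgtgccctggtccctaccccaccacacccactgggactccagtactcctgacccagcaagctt
Fabp5, CTCF, chr3:9947761-9947961: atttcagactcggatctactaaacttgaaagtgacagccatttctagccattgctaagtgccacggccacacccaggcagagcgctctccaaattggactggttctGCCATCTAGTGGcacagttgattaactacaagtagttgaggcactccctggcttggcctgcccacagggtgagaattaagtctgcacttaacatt
Irf2, KLF/SP, chr8:46686888-46687088: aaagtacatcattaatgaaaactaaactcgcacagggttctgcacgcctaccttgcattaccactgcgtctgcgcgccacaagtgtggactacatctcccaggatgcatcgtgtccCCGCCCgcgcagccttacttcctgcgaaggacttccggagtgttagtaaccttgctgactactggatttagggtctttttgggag
Cited2, C/EBP, chr10:16589502-16589702: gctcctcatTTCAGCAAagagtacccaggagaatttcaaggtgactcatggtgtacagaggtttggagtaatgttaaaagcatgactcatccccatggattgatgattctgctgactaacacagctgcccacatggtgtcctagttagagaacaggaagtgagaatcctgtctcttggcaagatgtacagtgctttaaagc
Cast, TEAD, chr13:74822201-74822401: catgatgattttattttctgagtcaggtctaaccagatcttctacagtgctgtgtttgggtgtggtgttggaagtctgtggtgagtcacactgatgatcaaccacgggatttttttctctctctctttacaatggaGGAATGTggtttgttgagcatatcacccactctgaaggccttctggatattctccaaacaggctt

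The Arrdc3 region had folds of enrichment, as the peak caller gave them, that placed it between the 99.5th and the 100th percentile of the 6 lists. The Fabp5 region lay 64.7 kb upstream of its nearest start site, with folds of 18 and 19.4 in beige, 9.83 and 11.7 in white and 15.3 and 13.7 in brown. Both regions were thus near the top of every list. The Fabp5 window carries a CTCF match and none of AP-1, C/EBP or TEAD, so its position beside a lipid gene and its motif content name different kinds of element.

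Shared distal regions were wide and well placed in the lists, and both follow in part from the rule. Their merged width had a median of 530 bp (5th to 95th percentile 263 to 1020 bp), against 204 bp for other distal and 746 bp for shared proximal regions. Their median percentile of fold was 71.9 and 74.0 in the beige lists, 72.4 and 72.1 in the white lists and 71.1 and 69.2 in the brown lists. Other distal regions had medians of 28.2 to 35.4, and shared proximal regions 74.6 to 77.7. A region called in every library had to be strong enough for the weakest list, so these values are a description. The library that gave the strongest summit was beige 2 for 37.9% of the regions and brown 1 for 30.9%, and white 2 and brown 2 for 5.09% and 4.29%, so the windows above lean on 2 of the 6 libraries. Summits nonetheless lay close together: over the 6 libraries they spanned a median of 49 bp, and 76.1% of regions had all 6 within 100 bp.

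**Figure D1:**
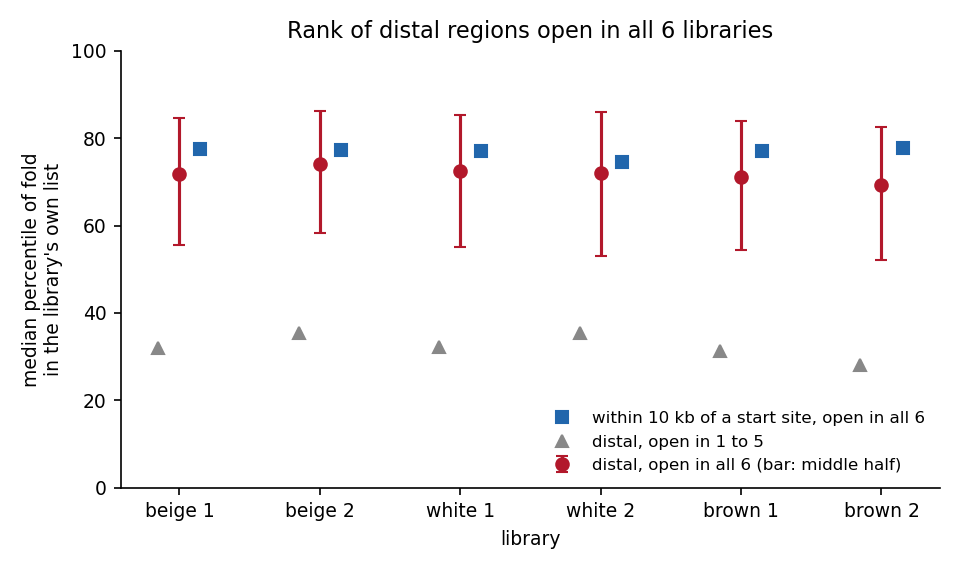
Median percentile of fold (0 to 100, in each library's own peak list) of the 3 kinds of region, by library; the bar on the shared distal regions runs from the 25th to the 75th percentile. Shared distal regions lay at 69.2 to 74.0, just under shared proximal regions and far above other distal regions at 28.2 to 35.4.

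The threshold of 10 kb cut through a continuous population. Just inside it lay regions 10001 bp from Greb1, 10002 bp from Sh3pxd2b and 10003 bp from Pcbp3, with mean percentiles of 82.6, 72.5 and 90.8. Just outside lay regions 10000 bp from Nt5c2 and 9999 bp from Anxa6 and Prkd3, at 90.8, 19.8 and 58.3. Between 9 and 10 kb 25.6% of regions were open in all 6, and between 10 and 11 kb 28.9% were.

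The median distance to the nearest start site was 46.5 kb, and 26.4% of the shared distal regions lay over 100 kb away. For other distal regions these values were 56.5 kb and 33.5%. The summit fell in an intron of a protein-coding gene in 43.2%, in an exon in 2.28% and between genes in 54.5%. The intronic share was 43.2% ± 0.0244 against 43.4% ± 1.47 in other distal regions, a difference within the spread between libraries (SD, n = 6 libraries, exact two-sided sign-flip permutation test, p = 0.750). Its direction depended on the comparison, since the share was 2.66 points higher within 10 bins of fold and 1.36 points lower among peaks at a stricter q (difference -1.36, exact permutation p = 0.0312 each over 6 libraries, the smallest such a test can give). Only 4.63% of the regions had a summit within 1 kb of a start site of another gene type, such as a long noncoding RNA.

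Their sequence was slightly richer in G and C and poorer in repeats. GC content was 49.9% ± 0.115 in shared distal and 48.5% ± 1.01 in other distal windows (SD, n = 6 libraries, adjusted p = 0.0469, exact sign-flip permutation test). Bases masked as repeats made up 8.42% ± 0.0957 and 13.6% ± 1.45 (exact sign-flip permutation test, adjusted p = 0.0469), and the share was lower in 6 of 6 libraries. The libraries share most of these regions, so these p-values say how steady a difference was from list to list and not how many independent sequences bear it.

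Motif matches were counted within 100 bp of each library's own summit for 20 families, on both strands. The strongest difference belonged to AP-1, searched as TGACTCA and its reverse complement TGAGTCA. AP-1 matched 28.6%, 28.6%, 28.8%, 28.1%, 29.1% and 28.5% of shared distal windows in beige 1, beige 2, white 1, white 2, brown 1 and brown 2. In other distal windows the shares were 17.8%, 18.1%, 19.5%, 15.3%, 24.0% and 16.8%. The same shared distal regions were scored in every library, so their nearly equal shares follow from the rule and are no agreement between replicates. Each of these shares lay above every value of the other distal regions. The mean difference was 10.0 ± 2.70 percentage points (SD, n = 6 libraries).

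CTCF, the insulator protein, matched 6.14% ± 0.0744 of shared distal and 2.87% ± 1.07 of other distal windows (SD, n = 6). KLF/SP sites (GGGCGG), bound by Krüppel-like and Sp1-type zinc finger factors, matched 7.87% ± 0.137 and 4.77% ± 0.343. C/EBP sites (TTGCNNAA) matched 16.1% ± 0.240 and 14.0% ± 1.80, the short NFI site (TTGGCA) 18.8% ± 0.138 and 17.2% ± 0.584, and TEAD sites (ACATTCC), bound by the effectors of the Hippo pathway, 5.65% ± 0.0502 and 4.68% ± 0.423. EBF sites were at 1.85% ± 0.0762 and 1.5% ± 0.274. All of these were higher in 6 of 6 libraries.

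In total 12 families had a higher share in shared distal regions in all 6 libraries, 2 a lower share and 6 neither. Each of the 14 had an adjusted p of 0.0446 (exact two-sided sign-flip permutation test over 6 libraries, Benjamini-Hochberg over 20 families), which rests on the smallest p that 6 libraries allow, 0.0312. The lower ones were the SNAI/ZEB E-box (CAGGTG), bound by repressors of epithelial genes, at 6.47% ± 0.163 against 8.84% ± 1.79, and the PPAR DR1 element, at 0.662% ± 0.0168 against 0.770% ± 0.0799 (SD, n = 6). The DR1 site of PPARγ was therefore rare in both classes by the strict consensus used.

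Much of this moved with peak strength. When regions were compared only within 10 bins of fold, AP-1 was still 6.74 points higher but in 5 of 6 libraries (adjusted p = 0.250, exact permutation test), while CTCF averaged 1.93 points lower, with 3 libraries in each direction. KLF/SP kept a difference of 3.58 points in 6 of 6 libraries (adjusted p = 0.0893, exact permutation test). The CRE, SRF and NF-κB families also stayed higher in 6 of 6 libraries, by 0.293, 0.295 and 0.404 points. PPAR DR1 turned to 0.242 points higher, in 6 of 6 libraries (adjusted p = 0.0893, exact permutation test). The SNAI/ZEB E-box differed by -1.72 points and was lower in 4 of 6 libraries (adjusted p = 0.402, exact permutation test). Neither of the 2 lower families was thus lower in all 6 libraries within bins of fold. Within bins of 5% GC, AP-1 was 10.9, CTCF 3.41 and KLF/SP 1.65 points higher in 6 of 6 libraries.

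**Figure D2:**
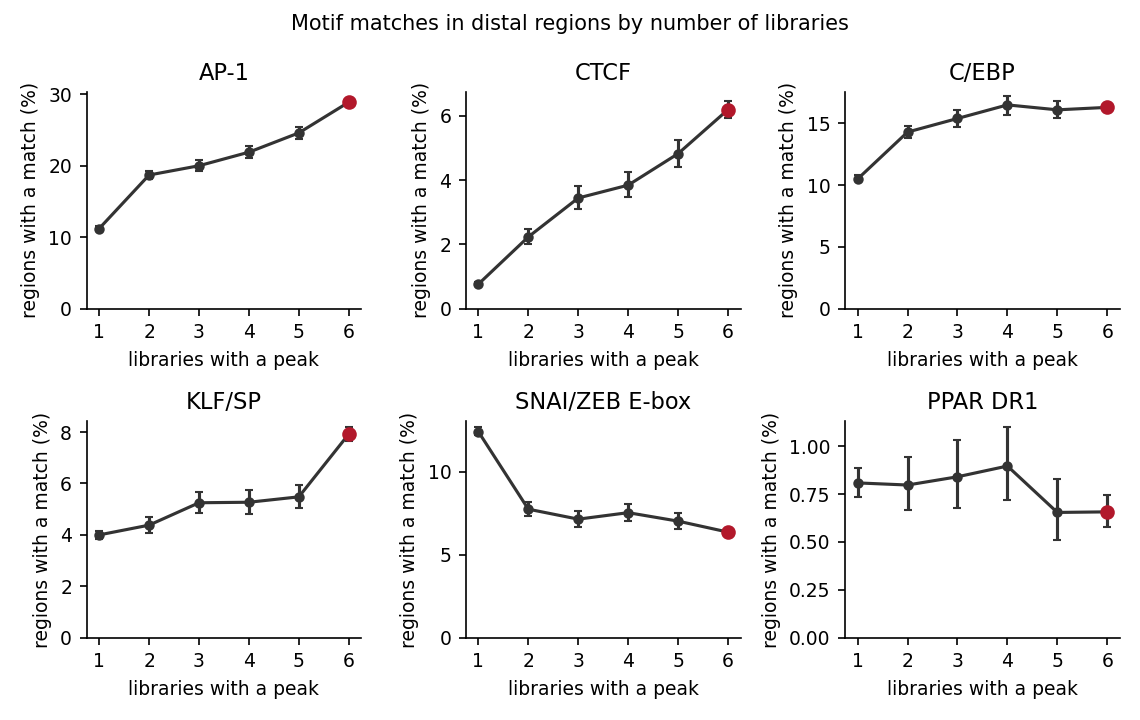
Share of distal regions with a motif match (percent, y axis) by the number of libraries with a peak (x axis); bars are 95% Clopper-Pearson intervals and the red point marks shared distal regions. AP-1 rose from 11.2% in 1 library to 28.9% in all 6 and CTCF from 0.761% to 6.19%, while the SNAI/ZEB E-box fell from 12.4% to 6.36% and C/EBP levelled off from 4 libraries on.

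The number of libraries with a peak tracked these shares step by step. At the strongest summit, AP-1 matched 11.2% of distal regions open in 1 library (95% Clopper-Pearson interval 10.9 to 11.5), 24.6% of those open in 5 (23.7 to 25.4) and 28.9% of those open in all 6 (28.4 to 29.4). C/EBP reached 16.5% at 4 libraries and stood at 16.3% in all 6, within each other's intervals. KLF/SP was 5.48% (5.05 to 5.94) at 5 libraries and 7.92% (7.64 to 8.20) at 6. Shared proximal regions, the nearest comparison in strength, had 41.9% with KLF/SP, 12% with AP-1 and 3.55% with CTCF, and over all merged regions the shares were 10.7%, 17.1% and 2.97%.

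Matches of AP-1, CTCF, KLF/SP, C/EBP and TEAD were denser near the summits. In single windows they could lie off centre, as the C/EBP match of Cited2 did at -87 bp. Within 50 bp of the strongest summit AP-1 occurred 2.52 times per kb of sequence, against 0.213 per kb at 400 to 480 bp, a ratio of 11.8. CTCF occurred 0.592 times per kb and 0.00720 per kb, a ratio of 82.2. The ratios of KLF/SP, C/EBP and TEAD were 3.09, 2.28 and 2.16. The SNAI/ZEB E-box had a ratio of 0.522 and a shape of its own: 0.508 and 0.576 matches per kb in the bins next to the summit, 0.232 and 0.248 at 50 bp to either side, and 0.732 at 400 to 480 bp.

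**Figure D3:**
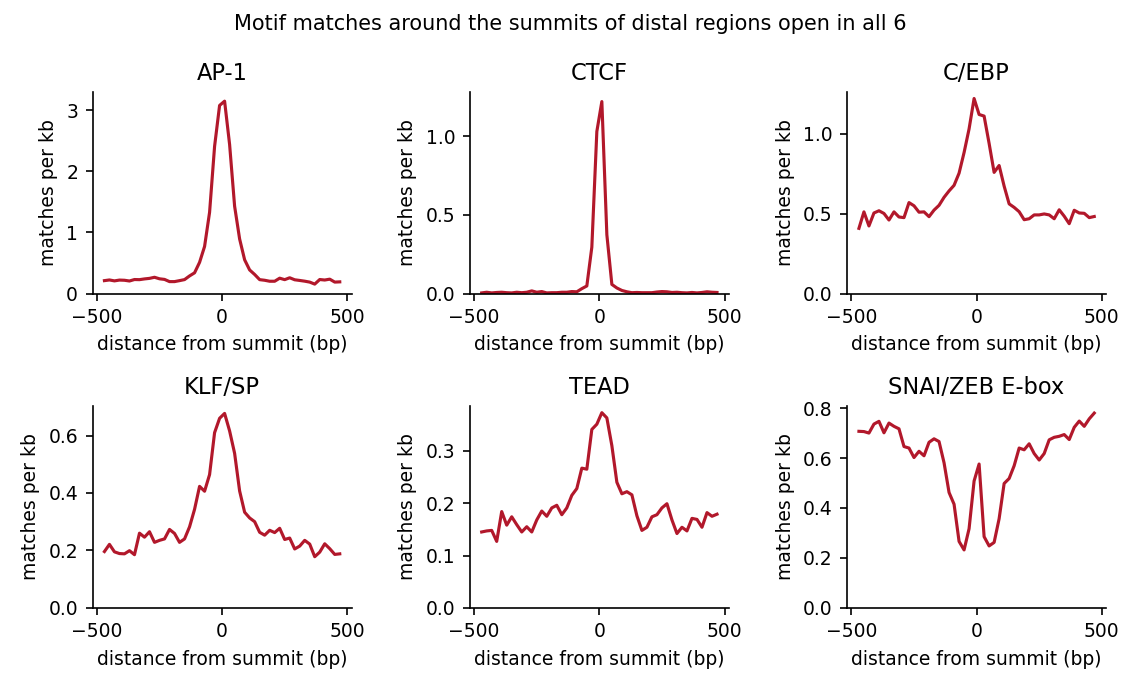
Motif matches per kb of sequence (y axis) in bins of 20 bp by distance from the strongest summit (x axis, bp) of the 35141 shared distal regions. AP-1 and CTCF peaked sharply at the summit, C/EBP, KLF/SP and TEAD more broadly, and the SNAI/ZEB E-box showed a narrow central peak inside a dip.

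CTCF and AP-1 sites rarely shared a region. CTCF matched 0.719% of regions with an AP-1 site (0.564 to 0.904) and 8.41% of regions without one (8.07 to 8.76). C/EBP and TEAD differed less, with C/EBP in 13.9% of regions with AP-1 and 17.2% without, and TEAD in 5.07% and 5.87%. The 2175 regions with a CTCF match had summits that spanned a median of 26 bp over the 6 libraries, against 47 bp for AP-1 regions without CTCF and 53 bp for regions with none of AP-1, CTCF, C/EBP and TEAD. They lay a median of 32.9 kb from a start site, against 51.6 kb for the AP-1 regions, and were narrower, with median widths of 427 and 536 bp. Of neighbouring CTCF regions along a chromosome, 26% faced each other, 25.9% faced away and 48.1% pointed the same way (2155 pairs), so neither facing arrangement was more frequent than the other beyond counting error.

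These counts bear on the word enhancer. With an exact CTCF match 6.19% of the shared distal regions (5.94 to 6.45) and with up to 1 mismatch 16.2% (15.8 to 16.6) held the motif of an insulator protein, against 1.96% of windows 1 kb away for the looser search. Any of AP-1, CTCF, C/EBP or TEAD was found in 49.8%, and the other 17638 regions held none of the 4 by these consensus words. Shared distal regions are therefore a mixture by sequence, and the peak lists alone do not say which of them act on a promoter.

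Motif content also went with rank. A total of 1464 regions, or 4.17%, ranked in the top 10th of all 6 lists. Of these 42.6% held an AP-1 site, 15.2% a KLF/SP site and 4.78% a CTCF site, against 28.9%, 7.92% and 6.19% of all shared distal regions. CTCF was thus less frequent there than in the whole class. Only 121 regions lay below the 25th percentile in all 6 lists. Of them 19% held an AP-1 site, 9.09% a KLF/SP site and 0.826%, or 1 region, a CTCF site. From the lowest to the highest of 4 equal groups by mean percentile, AP-1 went from 23.7% (22.8 to 24.6) to 35.1% (34.1 to 36.1). CTCF went from 2.27% to 8.19%, with 8.32% in the group below the highest.

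The 10 highest regions of all were led by Mc2r, Filip1l, Cdk8 and Gm31371 as nearest genes, and every one had over 10% of its 31-mers elsewhere in the genome as well. In 6 of the 10 the share was over 50%, and at Cdk8 it was 11.7%. Reads that lie wholly within such repeated stretches cannot be placed with certainty. Of the 100 highest 28 had over 10% of such 31-mers, and of all shared distal regions 3.69%. None shared a 31-mer with the mitochondrial genome. Among regions with at most 10% of such 31-mers, a limit set after seeing the data, the top 10 were nearest to Irf2, Alox5ap, Arrdc3 (2 regions), Rabgap1l, Jcad, Cited2, Smim15, Bst1 and Med4. Of these 10, 5 held an AP-1 site and 3 a KLF/SP site. The Cited2 region lay 1130 kb from the gene, a transcriptional co-regulator, so the nearest gene can be very far.

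Shared distal regions were spread over the genome at 15.7 per Mb of sequence over 10 kb from a start site. Over autosomes the density ran from 13.6 per Mb on chromosome 14 to 22.5 per Mb on chromosome 11. The X chromosome had 3.65 per Mb, but 24.4% of its distal regions were open in all 6 libraries, close to the 25% of the whole genome, so the X was poor in distal peaks of every kind. Neighbours were a median of 26.1 kb apart.

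Their spread over the genome was uneven. Of 2454 autosomal windows of 1 Mb, 199 held none, the median held 13 and the fullest 57. The fullest 10th of windows held 25.3% of the shared distal regions, and the fullest 10th for other distal regions held 19.1% of those. The fullest window, on chromosome 7 from 112000001 to 113000000, had 17 regions nearest to Tead1, the DNA-binding partner of YAP, and 13 nearest to Parva, a focal adhesion protein. The next, on chromosome 2 from 27000001 to 28000000, had 52, led by Col5a1, a fibrillar collagen, with 15 and Rxra, the partner of PPARγ, with 13. A window on chromosome 2 from 167000001 to 168000000 held 50, with Ptpn1 and Cebpb, an early adipogenic factor, at 13 and 11. Densities of both classes went together over windows (Pearson r = 0.833, Spearman rho = 0.859, over 2454 windows that share libraries and gene density), given as a description.

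Genes were named by the nearest start site, which does not show that a region acts on that gene. Of 21851 protein-coding genes, 9632 (44.1%) had at least 1 shared distal region, 708 had 10 or more and 102 had 20 or more. Myc, the growth-promoting transcription factor, had the most, with 46 in 1.42 Mb, of which 10 lay in the top 10th by mean percentile and 13 held an AP-1 site. Pde4d, a cAMP phosphodiesterase, had 43 and Klf6, a Krüppel-like factor, 38, of which 18 held an AP-1 site. Zeb2, a repressor of epithelial genes, had 38, Lpp, a focal adhesion protein, 37, Zfp608 35, Bmper, a modulator of BMP signalling, 34 and Mast4 33. Ebf1, a factor of adipocyte and B cell lineages, and Kcnma1, a potassium channel, had 32 each. All 10 have long stretches of distal sequence to themselves, 0.646 to 1.92 Mb, and their densities of 19.8 to 49.5 per Mb lay above the genome's 15.7.

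By density the leading genes were others, and 1 of them, Sfi1, stood apart by its low folds. Among them Micall1 had 6 regions and Nanos3 had 8, and Itga5, the fibronectin receptor subunit, had 5. Sfi1 had 21 regions in 0.0791 Mb with a median percentile of only 0.516. Their median folds were 2.27 and 2.13 in beige, 2.21 and 2.15 in white and 2.05 and 2.2 in brown, against 5.35 to 7.83 for all shared distal regions, while their median -log10 q was 9.65 to 25.7. The Sfi1 cluster was thus called in every library with a low fold, and 7 of its 21 regions had over 10% repeated 31-mers.

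Gene lists that fit the tissue were compared with all genes by count and density. Matrix and basement membrane genes stood out by coverage: 25 of 26 had a shared distal region, a median of 8 each and 230 in all, or 47.7 per Mb and 34% of their distal regions. Thbs1, a matricellular protein, had 23, with 6 in the top 10th, Tnc 20, Fn1, fibronectin, 17, and Thbs2, Col5a1 and Col4a2 16, 15 and 14. Genes of TGF-β and Hippo signalling and the contractile cytoskeleton had the highest density, at 54.4 per Mb and 34.5% of distal regions. Of 28 such genes found 22 had one, led by Smad7, the inhibitory SMAD, with 25, Tgfbr2, the type II receptor, with 23 and Tead1 with 17. AP-1 genes had 38 regions at 50.1 per Mb, 11 each at Jun and Fosl2 and 6 at Fos.

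Of the adipogenic transcription factors 18 of 20 had at least 1, with 169 regions at 42.0 per Mb, 29.7% of their distal regions. Ebf1 had 32, Nfia 22, Nfib 17, Nr3c1, the glucocorticoid receptor, 16, Klf9 and Zfp423 14 each, Rxra 13 and Cebpb 11. Adipocyte markers, although all open at their promoters, had a region at 4 of 10 genes by the nearest start site, and Fabp4, Cebpa, Lipe and Cidec had none. Lipe, Cidec, Plin1 and Pnpla2 have no sequence over 10 kb from a start site that is nearest to them. The rule could therefore give them no region. Fabp4 has 0.0128 Mb of such sequence and Cebpa 0.0449 Mb. Lipid genes had one at 14 of 26, led by Lpin1 with 9 and Gpam and Scd1 with 8 each. Among the lipid genes, Gpd1 and Slc2a4 also have no such sequence. Over all protein-coding genes the nearest-start-site share was 44.1%, and 18586 of the 21851 have any such sequence. Counting every start site within 100 kb raised the adipocyte markers to 10 of 10, the lipid genes to 25 of 26, the macrophage markers to 10 of 10 and all genes from 9632 to 16921 of 21851.

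Thermogenic genes had 81 regions at 22.9 per Mb, 26.5% of their distal regions, of which Ebf2, a brown fat determinant, and Ppargc1a, the co-activator of mitochondrial biogenesis, had 15 each. Mesenchymal progenitor genes had 120 at 27.5 per Mb, also 26.5%, led by Klf4 with 22 and Twist2 with 17. Adipokine and secreted factor genes had 84 at 36.5 per Mb and 32.7%, led by Cxcl12 with 19 and Nampt with 14. Endothelial markers, at 21.5 per Mb, lay close to the thermogenic genes, while macrophage, neuronal and skeletal muscle markers lay below all genes at 12, 11.4 and 10.6 per Mb. The share of distal regions open in all 6 was 13.9% at muscle, 19.4% at neuronal, 21.8% at macrophage and 25.1% at endothelial markers, 24.1% at adipocyte markers, 28.3% at lipid genes and 30.4% at AP-1 genes, against 25% over all genes. The lists were chosen with earlier results of these data known, and their counts are a description.

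**Figure D4:**
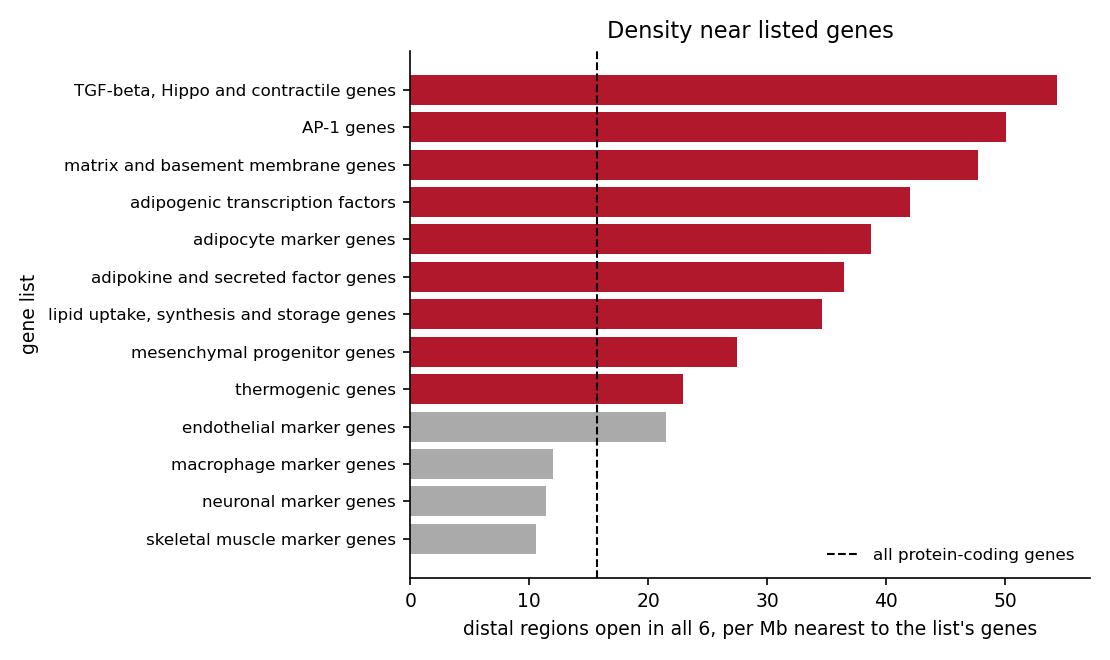
Shared distal regions per Mb of sequence over 10 kb from a start site and nearest to the genes of each list (x axis); red bars are adipose and mesenchymal lists, grey bars markers of other cell types, and the dashed line all protein-coding genes at 15.7 per Mb. TGF-β, Hippo and contractile genes stood highest at 54.4 and skeletal muscle markers lowest at 10.6.

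To compare conditions, folds were ranked from 0 to 100 over the 58714 regions open in all 6 libraries, so that each library had the same regions. A region was called higher or lower in a condition when both its libraries lay above or below the other 4. Shared distal regions were called higher in beige in 4067 cases (11.6%, against 10.9% of all regions open in all 6) and lower in 3940 (11.2%, against 11.7%). For white the counts were 4727 higher (13.5%, against 12.5%) and 3327 lower (9.47%, against 11.7%), and for brown 3744 higher (10.7%, against 12.9%) and 3907 lower (11.1%, against 9.31%). The shared distal regions make up 59.9% of that background and so pull it towards themselves, and their shares lay near it. Shared proximal regions, the rest of it, were called higher in white in 11% and lower in 15.1%, higher in brown in 16.3% and lower in 6.61%, and higher in beige in 9.89% and lower in 12.4%. The balance between higher and lower turned with the ranking. By -log10 q 3306 shared distal regions were higher and 4077 lower in beige, and 4246 higher and 3694 lower in brown, while by percentile in the whole list the counts were 4747 and 3043 in beige and 3036 and 4620 in brown. White had more higher than lower calls under each ranking. With 2 libraries against 4 an exact two-sided rank-sum test cannot go below p = 0.133, so no region was tested.

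Ranks within a condition were close but not always closer than between conditions. The median difference in rank was 8.80 points between the beige libraries, 9.65 between the brown and 12.2 between the white, and 12 to 14.6 between libraries of different conditions. The white replicates were thus as far apart as the nearest libraries of different conditions. Shared distal regions varied more than shared proximal ones, with a median SD of rank over the 6 libraries of 12.9 against 9.31.

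What set the condition calls apart was motif content, which the calls did not use. Of the regions ranked higher in beige 22.7% held a CTCF match (95% Clopper-Pearson interval 21.5 to 24.1), and of those ranked lower in beige 0.482% (0.291 to 0.752), against 6.19% of all shared distal regions. With up to 1 mismatch the shares were 50.8% and 2.51%. Regions lower in brown held it in 13.6% (12.5 to 14.7) and those higher in brown in 0.801% (0.541 to 1.14). AP-1 went the other way, with 12.3% (11.3 to 13.4) of beige-higher and 38.3% (36.8 to 39.8) of beige-lower regions, and 36.4% of brown-higher and 17.5% of brown-lower regions. White split less: CTCF was found in 1.25% of white-higher and 4.99% of white-lower regions, both under the share of all, and AP-1 in 30.6% and 26.9%.

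The same was visible in each library. The median rank of regions with a CTCF match was 69.6 and 75.1 in beige, 45.9 and 62.6 in white and 43.6 and 49.4 in brown, while all shared distal regions had medians of 45.6 to 48.6. Regions with an AP-1 match had median ranks of 47.6 and 48.1 in beige, 56.4 and 50.3 in white and 57.6 and 51.6 in brown. C/EBP regions stayed between 46.6 and 51.3 and KLF/SP regions between 49.2 and 51.7. Both beige libraries were above the other 4 for CTCF and below them for AP-1, but the white replicates differed by more for CTCF than the brown from the lower white one. Mapped reads also differed between beige and white, as given above, and their part in this shift of a whole class of sites was not tested. Counting only regions with at most 10% repeated 31-mers left 23.0% and 0.472% for CTCF in beige-higher and beige-lower regions, and ranking by -log10 q 22.5% and 0.442%, both added after the data were seen.

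**Figure D5:**
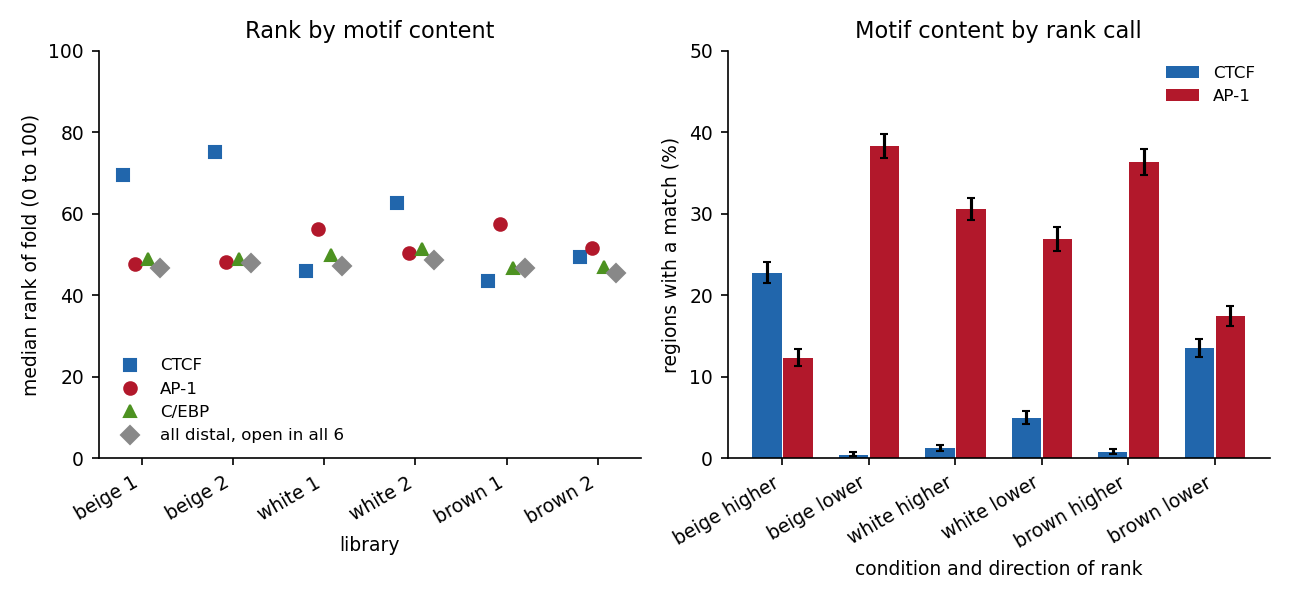
Left, median rank of fold (0 to 100 over the 58714 regions open in all 6) of shared distal regions with a CTCF, AP-1 or C/EBP match and of all of them, by library. Right, share of regions with a CTCF or AP-1 match (percent, 95% Clopper-Pearson intervals) among those ranked higher or lower in a condition; CTCF ranked at 69.6 and 75.1 in beige and at 43.6 to 62.6 elsewhere.

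The regions with the widest gap show both sides of this. Of the 5 widest in beige-higher regions, 4 held a CTCF match, nearest to Tex2, Asb18, Ccdc25 and Umps. The Tex2 region had folds of 12.9 and 13.6 in beige, 3.54 and 4.66 in white and 5.18 and 4.21 in brown, so that the groups did not overlap. The 5 widest in beige-lower regions held no CTCF match and were nearest to Col5a2, Palld, Abi1, Cntnap5a and Gli3. The Col5a2 region, 12.7 kb from a fibrillar collagen gene, had folds of 4.00 and 4.00 in beige, 7.30 and 5.38 in white and 7.44 and 7.71 in brown.

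The widest white-lower gap belonged to Dio2, the deiodinase that makes active thyroid hormone in brown fat. This region, chr12:90579906-90580395, lay 158 kb from the start site, with folds of 13.5 and 12 in beige, 3.65 and 3.74 in white and 20.3 and 19.4 in brown. Beige and brown were thus far above white, and brown above beige. A white-higher region at chr12:9921621-9922177, 348 kb from Osr1, a mesenchymal progenitor factor, had folds of 8.03 and 6.73 in white against 3.47 and 4.23 in beige and 3.70 and 3.04 in brown. Of the 5 widest brown-higher gaps, those near Zfp804b, Npy and Trak1 had an AP-1 site and those near Dok5 and Cdca7 had none, and regions near Cog6, Tnpo1 and Exoc6 the brown-lower ones. These regions were picked for the widest gaps in these same ranks, so their separation follows from the choice. They show the largest differences seen and say nothing of shared distal regions as a class.

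By list, thermogenic genes had 1 beige-higher region of 81 (1.23%, all shared distal regions 11.6%), 12 white-lower (14.8%, all 9.47%) and 13 brown-higher (16.0%, all 10.7%). Matrix genes had 48 beige-lower of 230 (20.9%, all 11.2%) and 45 white-higher (19.6%, all 13.5%). Lipid genes had 13 beige-lower (19.1%, all 11.2%) and 14 brown-higher (20.6%, all 10.7%) regions of 68. Over all 9 adipose and mesenchymal lists, the brown-higher share ran from 14.2% to 26.3%, above the 10.7% of all shared distal regions in each. It was 12.9% over all regions open in all 6. At endothelial, neuronal, macrophage and skeletal muscle markers it was 14.3%, 11.1%, 0% and 0%. The beige-higher share of the 9 lists ran from 1.23% to 15.8%, below 11.6% in all but the progenitor list. All these calls are by rank of fold only. These counts rest on few regions that share genes, and are given as a description.

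Single loci held regions of several kinds. Pparg, the master regulator of adipogenesis, had 6. The one at chr6:115462707-115463338, 41.1 kb downstream and over an exon, held an AP-1 site and had folds of 10.6 and 12.3 in beige, 12.9 and 9.01 in white and 15.4 and 13.5 in brown. The one at chr6:115349403-115350188, 11.1 kb upstream, had 14.5 and 17 in beige, 9.81 and 7.66 in white and 12.8 and 10.0 in brown, and ranked higher in beige, where the first ranked lower. Adipoq, which encodes adiponectin, had 2, and the one 13.3 kb away had folds of 8.46 and 7.88, 3.89 and 4.36, and 9.83 and 7.24, lowest in white.

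Ucp1, the uncoupling protein of thermogenic fat, was looked up after the values were seen and had 4. The strongest, chr8:83260322-83260971, lay 29.7 kb upstream in an intron of a neighbouring gene and held a CTCF match. Its folds were 19.6 and 17.9 in beige, 10.4 and 9.14 in white and 11.8 and 10.3 in brown, both beige libraries above the other 4 as for CTCF regions as a class. The region 11.7 kb upstream, chr8:83278230-83278937, held a C/EBP match, with folds of 12.7 and 11.9, 9.70 and 6.37, and 16.6 and 13.4, highest in brown. Of the 7 regions at Dio2, 3 ranked higher in brown, 2 of which also ranked lower in white (all shared distal regions 10.7% and 9.47%). Another 1 ranked lower in brown and higher in white (all 11.1% and 13.5%), and 1 ranked lower in beige (all 11.2%). Of the 15 at Ppargc1a, 5 ranked higher and 2 lower in brown (all shared distal regions 10.7% and 11.1%). In white 4 ranked higher and 2 lower (all 13.5% and 9.47%), and in beige 3 lower and 0 higher (all 11.2% and 11.6%).

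Cd36, the fatty acid transporter, had 6 regions, of which 3 ranked lower in beige, 3 higher in brown and 1 lower in white (all shared distal regions 11.2%, 10.7% and 9.47%). The one at chr5:17720035-17720606 had folds of 10.4 and 8.95 in beige, 13.7 and 13.2 in white and 17.9 and 13.6 in brown. Lpl, lipoprotein lipase, had 6, of which 4 ranked higher in white (all shared distal regions 13.5%). One was the region 73.7 kb away, with folds of 12.3 and 8.70 in white, 11.2 and 11.2 in beige and 12.4 and 9.47 in brown. There the folds overlapped between conditions and only the ranks set white apart, as the median folds of the white lists, 5.77 and 5.35, were below those of the other 4.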

How the data were processed

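The deposited data were 6 ATAC-seq peak lists, 1 for each library. Per the study's methods and the submitters' processing notes, the authors aligned reads to mm10 with BWA and called peaks in each library separately with MACS2, keeping peaks at q under 0.05. The fold values deposited by the authors are the ratio of the pileup at a summit to the local background of the same library. The -log10 q values deposited by the authors give the confidence of that summit. SAMtools, deepTools and DESeq2 are also named in the notes, and their output was not used here. The lists hold no reads, so no count test was possible; library totals, stated by the study for beige and white, were not used.

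Intervals of a list were reduced to the summit of highest -log10 q, and intervals of the 6 lists were merged where they overlapped or touched. Start sites were those of protein-coding transcripts of protein-coding genes in the GENCODE M21 basic annotation (mm10, GRCm38), and sequence, repeats and repeated 31-mers were read from RefSeq's copy of that build. Motif words of 20 families were searched on both strands within 100 bp of each library's own summit. C/EBP, AP-1, KLF/SP, TEAD, the short NFI site and the SNAI/ZEB E-box were searched with the letters given above and the others by name as fixed consensus words. Shared and other distal regions were compared by an exact two-sided sign-flip permutation test over 6 libraries, with Benjamini-Hochberg adjustment over 20 families or 3 measures. Shares carry 95% Clopper-Pearson intervals. The study calls replicates biological without naming animals or cultures, and p-values measure the spread between these libraries.

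The members and lists were chosen with earlier results of these data known. Genes named are up to 8 of each list with the most regions, the 10 with the most regions, the 10 densest with at least 5 regions (1 is not reported here), the nearest genes of the 10 highest-ranked regions, those of the highest-ranked regions with a motif and, per condition and direction, of the 5 widest gaps. The limit on repeated 31-mers and the motif content of condition calls under other rankings were added after the data were seen, and the loci of Ucp1, Pparg, Adipoq, Cd36, Lpl and Ppargc1a were listed in full after their values were seen. Alternatives changed the window, q, distance, annotation, bins of fold or GC, repeat content and libraries. The motif search was tested on simulated windows, where 20 of 20 planted differences were recovered within 1.5 points. Tests and intervals came from scipy 1.17.1 and tables from pandas 2.3.3 under Python 3.11.15, 31-mers were counted with numba 0.67.0 and numpy 2.4.6, and plots were drawn with matplotlib 3.10.9.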

Additional observations from a re-analysis of the deposited data

How the results depend on the processing

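The number of shared distal regions ran from 26875, with start sites of every gene type, to 39945, with a distance of 5 kb, and from 35850 to 38174 when a library was left out. The count of motif families with a higher share fell from 12 to 5 with peaks at q under 0.00001, to 6 within 10 bins of fold, to 7 among windows with at most 10% repeat bases and to 6 against distal regions of 4 or 5 libraries. Families with a lower share went from 2 to 1 with 50 bp, with 250 bp, within bins of fold, with few repeat bases and against regions of 4 or 5 libraries, to 0 with the stricter q, and to 1 to 2 with a library left out. Leaving out either white library gave 1 such family, and leaving out any other gave 2. Of 260 family values under these alternatives 240 kept their direction. Within 10 bins of fold CTCF turned to -1.93 points, PPAR DR1 to 0.242, NFI to 0.0285 and RUNX to -0.788. Against regions of 4 or 5 libraries the short NFI site turned to -0.0559 and RUNX to -0.00944. RUNX also turned to -0.00654 with 50 bp and -0.121 with the stricter q, and MEF2 there to -0.0576. NFI turned to 0.00319 with 250 bp, FOX to 0.000166 with 50 bp and 0.101 within GC bins, and IRF to 0.0393 within GC bins and 0.0410 with few repeat bases. With a library left out NFI ran from -0.00518 to 0.00634 and FOX from -0.0805 to 0.0643. With 5 libraries no p can go below 0.0625, and the differences then ran from 3.06 to 3.66 points for CTCF, 1.20 to 1.37 for GC content and -5.45 to -4.57 for repeats. The GC difference was 1.09 with 250 bp, where it missed the threshold. The intronic difference was 2.66 within bins of fold, 0.170 at 20 kb, -1.36 at the stricter q and -0.590 to 0.247 with a library left out. The cause of these changes was not tested. The mean median percentile was 69.0 by -log10 q. Of the 10 genes with the most regions 6 remained at the stricter q and 0 by density. Any start site within 100 kb gave a region to 25 lipid, 19 thermogenic, 10 macrophage, 8 muscle and 10 adipocyte marker genes.

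No paired analysis was possible because the replicate numbers link no libraries across conditions and no test between conditions was run. The sign-flip test already pairs both kinds of region within each library.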
